A study of Saccharomyces cerevisiae Vin13 with 18 samples.

Results

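The comparison described here is the whole course of wine fermentation in laboratory vials, day 10 against day 2, and uses 6 of the study's 18 arrays, 3 from each day. The yeast was VIN13, a commercial Saccharomyces cerevisiae wine strain, growing in Chardonnay must at 20 °C after inoculation to an OD600 of 0.1. The day 10 vials were in late stationary phase and the day 2 vials in exponential growth, and both were 80 ml microaerobic cultures with 3 biological replicates. The other arrays used below come from the vials on day 5, in early stationary phase, and from 300 L commercial tanks on days 2, 5 and 10, again with 3 biological replicates each. The labels name no difference in genotype and no added agent between the groups. A single strain in small vials limits the groups as a model of a cellar, and the labels leave the sugar, ethanol and nitrogen of the must on each day unstated.

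In wine must, yeast first divides on hexoses and amino acids with abundant ribosomes and sterols, and it makes sterols only where oxygen is available. Later, nitrogen or oxygen runs short, ethanol accumulates, division stops and the remaining sugar is fermented by resting cells. Those cells are known to rely on chaperones, reserve carbohydrate and transporters of high sugar affinity, under regulators that sense glucose (Snf3, Rgt2, Snf1), nitrogen (Gln3, Gat1), heme and oxygen (Hap1, Rox1) and misfolded protein (Hsf1).

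Transcripts were measured on Affymetrix arrays that also carry probe sets of the fission yeast S. pombe, and values below are log2 of the deposited signal for 5449 S. cerevisiae genes. Between 5352 and 5385 of these genes lay above background on each array, background being log2 4.48, which 95% of the S. pombe probe sets did not exceed. Arrays correlated across genes at r 0.992 to 0.995 within the day 10 vials and 0.995 to 0.997 within the day 2 vials, with a median SD per gene of 0.116 and 0.083. The 8 controls that read the 3′ minus the 5′ part of a transcript averaged 1.78 ± 0.07 on day 10 and 1.00 ± 0.03 on day 2 (log2, SD, n = 3 each), so this measure of RNA quality moved with the comparison, and its part in the results was not tested. Signals reached at most log2 15.27. Of 61 genes above 14 on both days 35 were called and none changed 2-fold, which this choice of genes nearly fixes in advance. The normalization sets all arrays to one distribution of signals, though the median S. cerevisiae gene still differed between days, as given below. Each level is therefore relative to the other transcripts, and fewer cells and less RNA per cell cannot be told apart.

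Vials on day 10 differed from vials on day 2 in 4000 of 5449 genes, or 73.4% (limma, adjusted p under 0.05, called below). Of these, 1479 (27.1% of genes) were higher and 2521 (46.3%) lower, and 591 were higher and 898 lower by 2-fold or more (27.3% in all). The 3 day 10 values did not overlap the 3 day 2 values in 4427 genes (81.2%). The largest changes were rises: 28 genes rose by 3 log2 units or more and 5 fell by as much. The median gene fell by 0.23, and that shift depends on scaling. It was -0.11 after each array was centred on its median and -0.09 after a repeated quantile normalization, which used the S. cerevisiae probe sets only. In these settings 43.1% and 44.6% of called genes were higher, against 37.0% as deposited. With a smooth trend along coding length taken out of each array, 1905 genes were higher and 1981 lower (49.0% higher).

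The largest rises with a standard gene name were led by a splicing protein, a mating pheromone and chaperones. URN1, whose product associates with the spliceosome, had 13.35, 13.39 and 13.58 on day 10, against 7.97, 8.03 and 8.15 on day 2 (log2 signal), a 42-fold rise (log2 difference 5.39, SE 0.13, limma adjusted p = 7.69e-15). MFA1, one of the genes of the a-factor pheromone, had 13.12, 13.24 and 13.02 on day 10, against 8.67, 8.56 and 8.49 on day 2 (log2 difference 4.56, SE 0.21, limma adjusted p = 1.97e-11). In both genes every day 10 array stood more than 4 log2 units above every day 2 array. APJ1, a J-domain partner of HSP70 chaperones, had 14.25, 14.16 and 14.32 on day 10, against 9.92, 9.97 and 10.06 on day 2 (log2 difference 4.26, SE 0.09, limma adjusted p = 3e-15). ADR1, the activator of ADH2 and of other genes repressed by glucose, had 12.73, 12.67 and 13.00 on day 10, against 8.65, 8.47 and 9.0 on day 2, a 17.1-fold difference (log2 difference 4.09, SE 0.16, limma adjusted p = 3.64e-12). The groups lay far apart although day 2 replicate 3 was the highest of its group. BTN2, which gathers misfolded proteins into deposits, had 14.27, 14.13 and 14.10 on day 10, against 10.15, 9.92 and 10.41 on day 2 (log2 difference 4.0, SE 0.19, limma adjusted p = 1.8e-11). SIS1, an essential J-domain chaperone, had 14.94, 14.88 and 15.04 on day 10, against 11.38, 11.10 and 11.38 on day 2 and so ended near the top of the signal range. ZPS1, a cell surface protein gene known to respond to low zinc, had 11.98, 11.97 and 12.35 on day 10, against 7.88, 7.88 and 7.87 on day 2. The other 5 were RDH54, a DNA translocase of recombination (3.71), ZPR1, a zinc finger protein that assists elongation factor 1A (3.60), PRP46, a splicing factor (3.57), GAC1, a phosphatase subunit that activates glycogen synthase (3.51), and OPI10 (3.34). RDH54 had the widest spread on day 2, with 9.74, 9.18 and 10.12, against 13.34, 13.42 and 13.39 on day 10. Genes without a standard name made up 8 of the 20 largest rises and 1 of the 20 largest falls.

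The largest falls with a standard gene name included transporters and enzymes alongside genes of other kinds. MSC7, related in sequence to aldehyde dehydrogenases, had 10.86, 10.59 and 10.98 on day 10, against 14.22, 14.19 and 14.22 on day 2, 10.6-fold lower on day 10 (log2 difference -3.40, SE 0.13, limma adjusted p = 3.64e-12). TPA1, an iron-dependent dioxygenase linked to translation termination, had 9.23, 9.42 and 9.38 on day 10, against 12.63, 12.63 and 12.75 on day 2 (log2 difference -3.33, SE 0.11, limma adjusted p = 4e-13). PMA2, the minor isoform of the plasma membrane proton pump, had 8.96, 8.52 and 8.27 on day 10, against 11.64, 11.43 and 11.96 on day 2 (log2 difference -3.09, SE 0.25, limma adjusted p = 1.02e-08). Of these 3 genes, chosen like all the named falls among those without overlap between the days, PMA2 varied most within its groups. CTR3, a high-affinity copper transporter, had 9.21, 8.98 and 8.52 on day 10, against 11.48, 11.53 and 11.58 on day 2 (log2 difference -2.63, SE 0.19, limma adjusted p = 2.32e-09). VHT1, the biotin transporter, had 10.19, 10.16 and 10.59 on day 10, against 12.94, 12.85 and 13.01 on day 2. The rest were RRG1, needed to keep the mitochondrial genome (-3.07), PEX32, a peroxisome membrane protein (-3.0), DPP1, a vacuolar lipid phosphatase known to respond to zinc (-2.83), TCA17 of a vesicle tethering complex (-2.80), PHM6 of the phosphate regulon (-2.70), ERP3 of the p24 cargo receptors (-2.66) and YTP1 (-2.62).

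**Figure D1:**
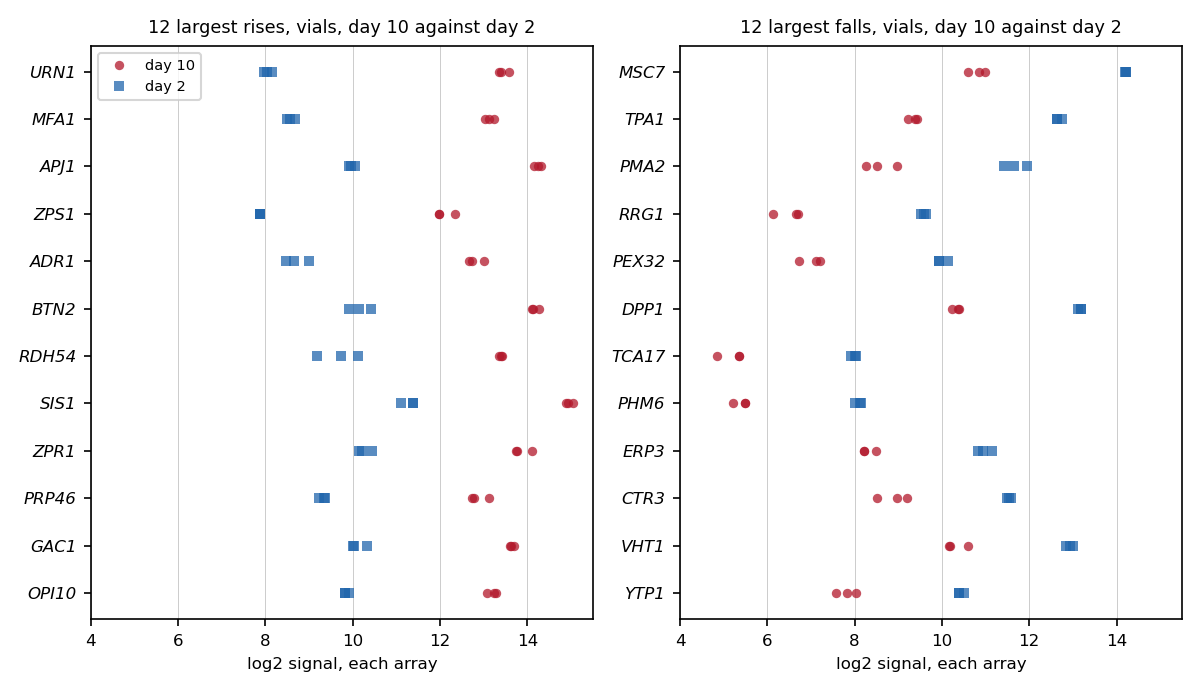
Log2 signal on each of the 3 day 10 arrays (circles) and 3 day 2 arrays (squares) of the vials, for the 12 largest named rises (left) and falls (right). Only genes without overlap between the days were eligible, so the gap is set by the choice of genes. The spread within a day is widest for RDH54 on day 2.

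Gene lists by function were compared with these overall values. The 45 lists hold 1669 entries that matched a measured gene, of 1731 written. In 31 lists more members were lower than higher, in 13 more were higher, and in 1 the counts were equal. Medians ran between -0.86 for ergosterol synthesis and 1.00 for flocculins, beside -0.23 over all genes. Several of these medians and counts depend on the scaling: 8 lists had a median of the other sign after centring each array (stress regulators, glycolysis, amino acid permeases, amino acid synthesis, sulphur, metals, cell wall, ubiquitin) and 6 after a repeated quantile normalization (amino acid permeases, amino acid synthesis, metals, cell wall, DNA replication, mating). With the length trend taken out 10 medians had the other sign (stress regulators, glycolysis, glycerol and acetate, amino acid permeases, amino acid synthesis, sulphur, metals, cell wall, ubiquitin, DNA replication). The balance of calls turned from more lower to more higher in 7 lists after centring, 6 after repeated quantile normalization and 14 with the length trend taken out, so that 15 of 45 lists then had more lower than higher calls.

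**Figure D2:**
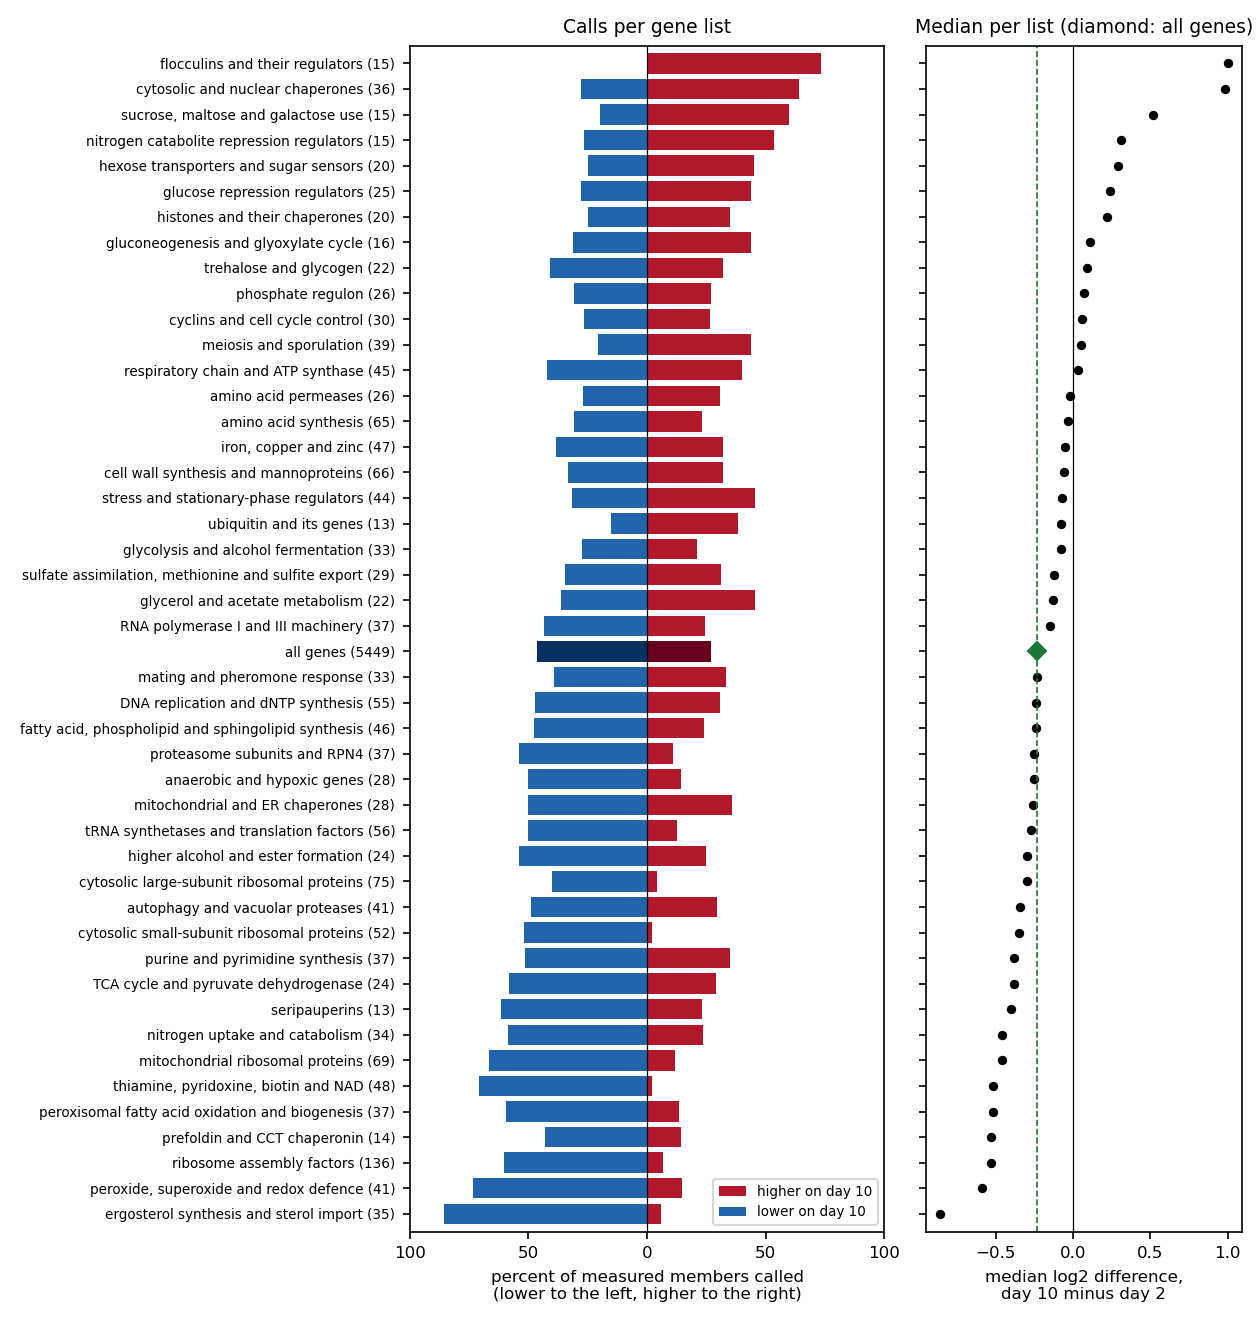
Percent of the measured members of each list (number in brackets) called higher on day 10 (right bars) or lower (left bars) than on day 2 in vials, and the median log2 difference per list, ordered by that median. The row of all genes, with 27.1% higher and 46.3% lower and a median of -0.23 (dashed line), separates lists such as chaperones and flocculins above it from ergosterol synthesis, redox defence and ribosome assembly below it.

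Cytosolic and nuclear chaperones had the highest list median after the flocculins. Of 36 measured members, 23 were higher on day 10 and 10 lower, with a median of 0.98. Here and below, divisions of a list by role were made after the values were seen. Of 12 genes of HSP70s, their exchange factors and J-domain partners 9 rose, 1 fell, and the median was 1.66. SSA4, the stress-induced HSP70, had 13.86, 13.71 and 13.93 on day 10, against 10.84, 10.71 and 11.03 on day 2 (log2 difference 2.98, SE 0.11, limma adjusted p = 1.57e-12), a 7.87-fold difference. FES1, which exchanges nucleotide on HSP70, rose by 3.20 and YDJ1, the major J-domain chaperone, by 2.57. SSA3, another stress-induced HSP70, differed by 0.18 and was not called. HSP82, the inducible HSP90, had 14.37, 14.38 and 14.46 on day 10, against 12.18, 12.28 and 12.43 on day 2, 4.31-fold higher (log2 difference 2.11, SE 0.10, limma adjusted p = 2.44e-11). Of 11 HSP90 genes and cochaperones 6 rose and 4 fell: the cochaperones STI1 (2.68), CPR6 (2.47) and AHA1 (2.43) rose, whereas PPT1 (-1.22), CPR7 (-1.04), CNS1 (-0.76) and CDC37 (-0.71) fell. HSF1, the activator of these genes, had 10.89, 10.76 and 10.83 on day 10, against 9.78, 9.83 and 9.79 on day 2 (log2 difference 1.03, SE 0.14, limma adjusted p = 5.1e-06). HSP104, the disaggregase, rose by 0.79 and the small heat shock protein HSP42 by 1.74. HSP12, a membrane stress protein highly expressed on both days, went the other way with 14.52, 14.28 and 14.06 on day 10, against 14.87, 14.80 and 14.89 on day 2 (log2 difference -0.57, SE 0.16, limma adjusted p = 0.00422). The chaperones that sit on ribosomes were also mostly lower, 3 of 4 falling (SSB1 -0.54, SSB2 -0.52, SSZ1 -0.90), while ZUO1 rose by 0.42. Readings of near-identical copies such as SSA1 (1.33) with SSA2 (0.93), SSB1 with SSB2 and HSP82 with HSC82 (1.35) may share signal.

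Chaperones of the mitochondrion and of the endoplasmic reticulum parted ways. Of 10 mitochondrial members 7 rose and 3 fell (median 1.06): MDJ1 and HSP78, a J-domain protein and a disaggregase of the matrix, rose by 2.24 and 2.23, HSP60 by 1.21, and the iron-sulphur chaperone SSQ1 changed by -1.18. Of 17 members in the endoplasmic reticulum 3 rose and 10 fell (median -0.41). Both kinds together had 10 higher and 14 lower of 28, and 13 and 10 with the length trend taken out. KAR2, its HSP70, had 14.69, 14.69 and 14.73 on day 10, against 13.67, 13.77 and 13.69 on day 2 (log2 difference 0.99, SE 0.07, limma adjusted p = 1.36e-09). The folding stress sensor IRE1 had 7.86, 7.87 and 8.02 on day 10, against 9.49, 9.36 and 9.35 on day 2, and the proline isomerase CPR5 changed by -1.76. The target of Ire1, HAC1, was higher by 0.40. Prefoldin and the CCT chaperonin, which fold actin and tubulin, had 2 members higher and 6 lower of 14 (14.3% and 42.9%). Over all genes 27.1% were higher and 46.3% lower, and over the 28 mitochondrial and reticulum genes 35.7% and 50%.

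Stress and stationary-phase regulators went in both directions, 20 of 44 higher and 14 lower (median -0.07, positive after centring). XBP1, a repressor made in starved and stressed cells, had 9.66, 9.54 and 10.09 on day 10, against 7.25, 7.15 and 7.42 on day 2 (log2 difference 2.49, SE 0.20, limma adjusted p = 1.07e-08). The oxidative stress regulator SKN7 rose by 1.76, the kinase gene SCH9 by 1.24, and the stationary-phase genes SPG4 and SPG5 by 1.51 and 1.47. RIM15, the kinase of entry into quiescence, was higher by 0.52 and its substrate IGO1 by 0.84. MSN4, an activator of the general stress response, changed by -0.62, and MSN2 differed by -0.15, not called. Stress genes went both ways: DDR48 (-0.99), CTT1 and, as given above, HSP12 were lower, whereas HSP42 and HSP104 were higher. CTT1, the cytosolic catalase, had 13.28, 12.88 and 12.79 on day 10, against 14.49, 14.53 and 14.48 on day 2 (log2 difference -1.52, SE 0.17, limma adjusted p = 3.58e-07). The protein kinase A genes TPK2 (-1.03) and TPK3 (-0.87) and the phosphodiesterase PDE2 (-1.33) were lower and its partner PDE1 (0.54) higher.

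Redox defence fell more widely: 30 of 41 measured genes were lower and 6 higher, with a median of -0.59. MXR1, which repairs oxidised methionine, had 10.30, 10.41 and 10.30 on day 10, against 12.60, 12.68 and 12.53 on day 2 (log2 difference -2.26, SE 0.10, limma adjusted p = 1.23e-11), 4.81-fold lower on day 10. The mitochondrial superoxide dismutase SOD2 changed by -1.44 and the cytosolic SOD1 by -0.62. Glutaredoxins split, with GRX7 at -2.23 and GRX2 at -1.75 against GRX6 at 2.17 and GRX3 at 1.17. SRX1, which reactivates peroxiredoxins, rose with 8.04, 7.98 and 8.24 on day 10, against 6.53, 6.48 and 6.56 on day 2, and ZWF1, the entry enzyme of the pentose phosphate pathway, rose by 1.18. YAP1, the peroxide-responsive activator, was not called (-0.08).

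Regulators of glucose sensing and repression rose more often than fell. Of 25 glucose repression regulators 11 were higher and 7 lower, with a median of 0.24. ADR1 led them, as given above, and CAT8, the activator of gluconeogenic genes, had 10.60, 10.76 and 10.59 on day 10, against 8.32, 8.48 and 8.30 on day 2 (log2 difference 2.29, SE 0.14, limma adjusted p = 3.25e-10). NRG1, a repressor of glucose-repressed genes, had 14.79, 14.84 and 14.77 on day 10, against 12.66, 12.77 and 12.75 on day 2, and HAP1, the heme-responsive activator, rose by 1.45. The kinase SNF1, which relieves repression, had 10.57, 10.54 and 10.54 on day 10, against 11.12, 11.27 and 11.22 on day 2 and was lower (-0.65), as was its subunit SNF4 (-0.89). MIG1, the main repressor, was not called (-0.18). Among transporters and sensors 9 of 20 were higher and 5 lower. MTH1 and RGT1, which keep hexose transporter genes repressed when glucose is low, had 12.48, 12.57 and 12.67 on day 10, against 10.60, 10.73 and 10.31 on day 2 for MTH1 and 12.43, 12.34 and 12.53 on day 10, against 10.01, 10.15 and 10.19 on day 2 for RGT1. In both genes every day 10 value lay above every day 2 value, and the 2 days did not overlap in 81.2% of all genes. HXT5, a transporter of slow-growing cells, had 9.83, 9.92 and 10.03 on day 10, against 8.14, 8.23 and 8.18 on day 2 (log2 difference 1.75, SE 0.15, limma adjusted p = 1.82e-08). HXT3, the main low-affinity transporter of fermentation, was lower with 14.05, 13.95 and 13.97 on day 10, against 14.52, 14.55 and 14.45 on day 2 (log2 difference -0.52, SE 0.07, limma adjusted p = 4.87e-06), HXT4 changed by -1.5, and HXT1 was not called (0.02). The probe set of HXT7, which may read its near-copy too, was higher by 0.51. HXT14 lay at or below background on all day 10 arrays and at 5.91, 5.66 and 5.99 on day 2, which makes it at least 2.59-fold lower; HXT10 lay at or below background on all day 2 arrays and was at least 1.77-fold higher on day 10.

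Sucrose and maltose genes were mostly higher, and the calls on glycolytic genes depended on the scaling. Of 15 sucrose, maltose and galactose genes 9 rose and 3 fell (median 0.52): the maltose permease MAL31 rose by 1.84, its activator MAL33 by 1.74 and the isomaltase IMA1 by 2.06, and the invertase gene SUC2 by 0.52. In glycolysis and alcohol fermentation 7 of 33 genes rose, 9 fell, and the median was -0.08. After centring 11 rose and 6 fell (median 0.03), and with the length trend taken out 20 rose and 4 fell (median 0.20). Pyruvate decarboxylase PDC1 (-0.09), alcohol dehydrogenase ADH1 (-0.10), pyruvate kinase CDC19 (-0.06), TDH1 (-0.05) and ENO1 (-0.04) were not called and had group means near the top of the signal range; after removal of the length trend these 5 differences were positive and called. TDH3 had 14.35, 14.39 and 14.48 on day 10, against 14.89, 14.84 and 14.96 on day 2 (log2 difference -0.49, SE 0.09, limma adjusted p = 6.74e-05), and PDC5, a minor decarboxylase, changed by -0.90. ADH2, the ethanol-oxidising isozyme, had 8.16, 8.11 and 8.27 on day 10, against 6.82, 6.88 and 6.71 on day 2 (log2 difference 1.37, SE 0.15, limma adjusted p = 2.8e-07). Glucokinase GLK1 rose by 0.64, and the glycolytic activator GCR2 by 1.17.

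Around this pathway, glycerol, acetate and reserve genes showed shifts between isozymes. GPD2, the glycerol-phosphate dehydrogenase isozyme of anaerobic growth, had 8.75, 8.69 and 9.08 on day 10, against 7.45, 7.31 and 7.41 on day 2 (log2 difference 1.45, SE 0.11, limma adjusted p = 3.95e-09), and GPD1, the osmotic isozyme, changed by -0.67. ACS2, the acetyl-CoA synthetase of glucose-grown and oxygen-poor cells, had 12.61, 12.63 and 12.71 on day 10, against 14.59, 14.60 and 14.65 on day 2 (log2 difference -1.97, SE 0.11, limma adjusted p = 1.08e-10), while ACS1, its glucose-repressed isozyme, was higher by 1.01. In all, 10 of 22 glycerol and acetate genes rose and 8 fell, and the largest rise was of ATO3, a putative ammonium exporter (2.60), followed by the glycerol oxidation gene GUT2 (1.59) and the acetate transporter ADY2 (1.52). In trehalose and glycogen metabolism 7 of 22 rose and 9 fell, or 10 and 9 after centring and 11 and 7 with the length trend taken out. GAC1 had 13.59, 13.63 and 13.69 on day 10, against 10.03, 10.32 and 10.01 on day 2, and GSY1, a glycogen synthase, rose by 0.98; the major synthase GSY2 (-0.40), the branching enzyme GLC3 (-0.93) and the phosphorylase GPH1 (-0.82) were lower. Trehalose synthase TPS1 was not called (-0.01, but called higher at 0.28 after removal of the length trend), and trehalose phosphatase TPS2 rose by 0.70. Of 16 gluconeogenic and glyoxylate genes 7 rose, among them PCK1, the committed enzyme (1.32), and ICL1, isocitrate lyase (0.66), and 5 fell; FBP1 was not called (-0.09).

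Respiratory genes split by complex. Over all 45, 18 were higher and 19 lower (median 0.03), or 22 and 15 after centring. Of 11 genes of the cytochrome bc1 complex and cytochrome c, 7 rose and 1 fell; of 9 of cytochrome c oxidase 4 rose and 2 fell; of 13 ATP synthase genes 11 fell and 1 rose, with medians of 0.20, 0.35 and -1.07 in that order. CYC1, the main cytochrome c gene, had 13.39, 13.25 and 13.11 on day 10, against 11.52, 11.49 and 11.58 on day 2 (log2 difference 1.72, SE 0.28, limma adjusted p = 3.66e-05), and CYT1, cytochrome c1, rose by 0.88. ATP2, the catalytic beta subunit of ATP synthase, had 12.29, 11.88 and 11.87 on day 10, against 13.45, 13.58 and 13.69 on day 2, 2.95-fold lower on day 10 (log2 difference -1.56, SE 0.13, limma adjusted p = 9.38e-09). ATP5, of the stalk, had 11.03, 10.49 and 10.72 on day 10, against 12.33, 12.53 and 12.45 on day 2 (log2 difference -1.69, SE 0.13, limma adjusted p = 4.33e-09), and ATP20 and ATP16 changed by -1.70 and -1.61. For ATP2 and ATP5 all day 10 values lay more than 1 unit under all day 2 values. NDE1, the external NADH dehydrogenase, rose with 10.48, 10.52 and 10.21 on day 10, against 8.59, 8.69 and 8.81 on day 2. COX5A, the aerobic subunit isoform, was higher by 0.40 and its hypoxic counterpart COX5B changed by -0.79. In the TCA cycle 14 of 24 genes fell and 7 rose: aconitase ACO1 (-1.29), succinyl-CoA ligase LSC2 (-1.24), SDH3 (-1.21) and citrate synthase CIT1 (-1.10) were lower, and IDH2 (1.04) and CIT3 (1.14) higher.

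Ergosterol synthesis fell at every step measured between acetyl-CoA and ergosterol in the values as deposited. Of 35 genes of synthesis, storage and import 30 were lower and 2 higher, with the lowest median of all lists (-0.86). All 9 genes of the mevalonate pathway were lower (median -1.40) and all 14 between squalene synthase and ergosterol (median -0.85). ERG24, the C-14 reductase, had 10.75, 10.73 and 10.97 on day 10, against 13.30, 13.31 and 13.31 on day 2 (log2 difference -2.49, SE 0.13, limma adjusted p = 9.1e-11), 5.62-fold lower. ERG13, HMG-CoA synthase, had 11.78, 11.84 and 11.86 on day 10, against 14.16, 14.22 and 14.14 on day 2 (log2 difference -2.35, SE 0.15, limma adjusted p = 8.02e-10). HMG1, the main HMG-CoA reductase and rate-limiting step, fell less, averaging 13.08 ± 0.07 on day 10 and 13.94 ± 0.06 on day 2 (SD, n = 3 each; log2 difference -0.86, SE 0.20, limma adjusted p = 0.00111). ERG11, the azole target, had the smallest fall of these 23 genes, with 14.61, 14.68 and 14.60 on day 10, against 14.90, 14.89 and 14.87 on day 2 (log2 difference -0.26, SE 0.08, limma adjusted p = 0.01); it is bright on both days, as is ERG3 (-0.40). The 2 higher genes were regulators, UPC2, which activates sterol genes on sterol depletion (0.56), and HAP1. AUS1, a sterol importer of anaerobic cells, changed by -1.05. After removal of the length trend 23 of the 35 genes were called lower and 4 higher, and ERG11 was not called (0.03).

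**Figure D3:**
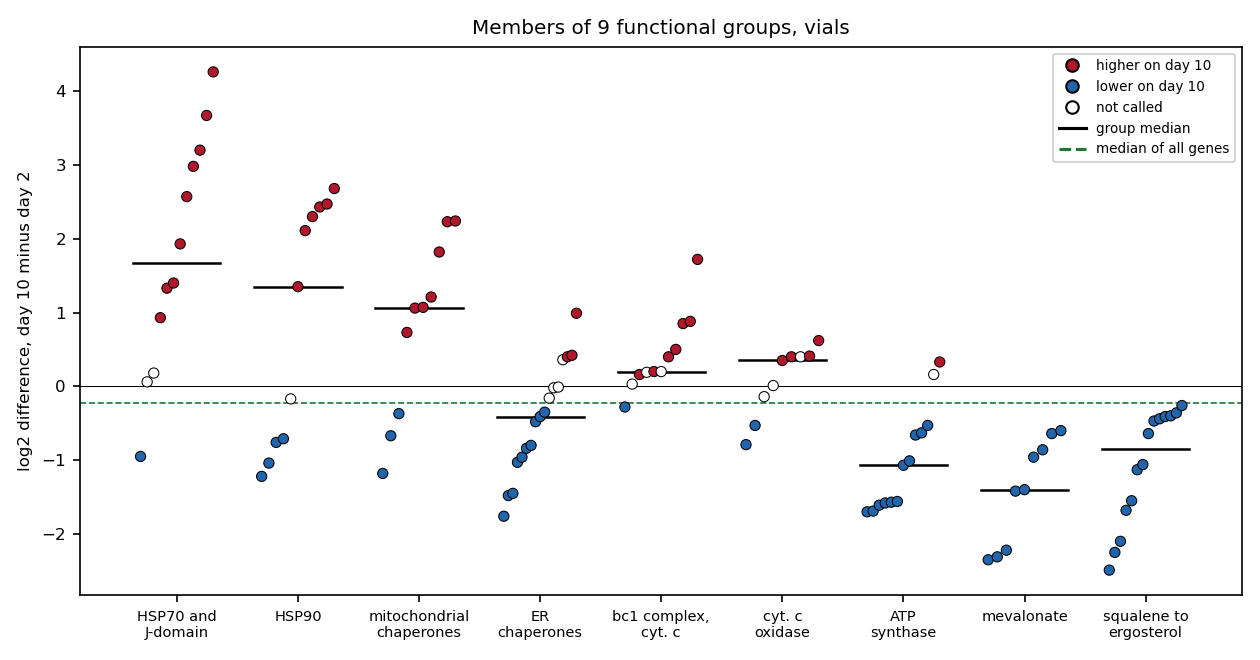
Log2 difference (day 10 minus day 2, vials) of each member of 9 functional groups, filled where called higher or lower and open where not called, with the group median (line) and the median of all genes (dashed). HSP70 and HSP90 systems and mitochondrial chaperones lie mostly above 0, ATP synthase mostly below, and all 23 sterol synthesis genes below.

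Genes of hypoxic growth and of lipids gave a mixed picture. Of 28 anaerobic and hypoxic genes 14 were lower and 4 higher (median -0.25, near that of all genes). NCE103, carbonic anhydrase, changed by -1.10, and the wall mannoprotein TIR4 by -0.90. OLE1, the oxygen-requiring desaturase, was not called at -0.07 (called higher at 0.22 after removal of the length trend), nor was ROX1, the repressor of hypoxic genes (0.37). Of 13 seripauperin genes 8 fell and 3 rose, but 12 of them are read by probe sets shared among near-identical copies and the counts are uncertain. In fatty acid, phospholipid and sphingolipid synthesis 22 of 46 fell and 11 rose. These shares, 47.8% and 23.9%, were near the 46.3% and 27.1% of all genes. Ceramide synthase LAG1 changed by -2.09, the elongation enzymes IFA38 and TSC13 by -1.91 and -1.62, and PCT1 of phosphatidylcholine synthesis by 1.51. Fatty acid synthase FAS1 (0.00) and acetyl-CoA carboxylase ACC1 (0.02) were not called. Peroxisomal genes were lower in 22 of 37 and higher in 5: the ATP carrier ANT1 (-2.12), the importer PXA1 (-1.44) and thiolase POT1 (-1.21) fell, whereas POX1, the first oxidase of fatty acid breakdown, rose by 1.17.

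Nitrogen genes fell at the level of uptake and breakdown while several of their regulators rose. Of 34 nitrogen uptake and catabolism genes 20 were lower and 8 higher (median -0.46). DAL5, the allantoate permease, had 10.03, 9.90 and 10.16 on day 10, against 12.23, 12.50 and 12.03 on day 2 (log2 difference -2.22, SE 0.12, limma adjusted p = 1e-10), and PUT2, of proline breakdown, had 11.40, 11.17 and 11.32 on day 10, against 13.41, 13.52 and 13.50 on day 2 (log2 difference -2.18, SE 0.14, limma adjusted p = 7.99e-10). Among 10 allantoin, urea and proline genes 8 fell and 1, DAL3, rose (0.64). GAP1, the general amino acid permease, had 12.49, 12.16 and 12.56 on day 10, against 13.85, 14.06 and 13.76 on day 2 (log2 difference -1.49, SE 0.30, limma adjusted p = 0.000283). The ammonium permease MEP1 went the other way with 12.24, 12.37 and 12.59 on day 10, against 10.27, 10.13 and 10.49 on day 2 (log2 difference 2.10, SE 0.21, limma adjusted p = 1.07e-07), as did GDH3, a glutamate dehydrogenase of nonfermentative growth, with 10.29, 10.76 and 10.79 on day 10, against 8.37, 8.66 and 8.37 on day 2. Of 15 regulators 8 rose, among them STP1 (1.33), UGA3 (1.31) and GAT1 (1.17), and 4 fell, including GLN3 (-0.96) and GZF3 (-1.22). Amino acid permeases were even, 8 of 26 higher and 7 lower: BAP2 and AGP1, permeases of branched-chain and many other amino acids, rose by 1.36 and 1.29, while the S-adenosylmethionine permease SAM3 and the arginine permease CAN1 changed by -1.71 and -1.09.

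Amino acid synthesis had 15 of 65 genes higher and 20 lower (median -0.03), a balance that turned under each other scaling: 21 higher and 14 lower after centring, 23 and 18 after repeated quantile normalization and 27 and 11 with the length trend taken out. ARG3, ornithine carbamoyltransferase, had 11.42, 11.46 and 11.63 on day 10, against 9.12, 9.22 and 9.17 on day 2 (log2 difference 2.33, SE 0.11, limma adjusted p = 2.73e-11), and ILV2, acetolactate synthase and the first step to valine and isoleucine, had 12.83, 12.84 and 13.10 on day 10, against 10.85, 10.89 and 11.05 on day 2 (log2 difference 1.99, SE 0.11, limma adjusted p = 7.69e-11). ILV5, a later step of the same pathway, changed by -1.11. HOM3, aspartate kinase, rose by 1.66. GCN4, the activator of these genes, was not called (-0.14). In sulphur metabolism 9 of 29 were higher and 10 lower (12 and 7 with the length trend taken out), with the regulator MET32 at 2.14 and methionine synthase MET6 at -1.48; the sulphite exporter SSU1 changed by -0.49. Of 24 genes of higher alcohols and esters 13 were lower and 6 higher (7 and 9 with the length trend taken out). ARO10, the decarboxylase of the Ehrlich pathway, had 10.06, 10.39 and 10.39 on day 10, against 7.87, 7.93 and 7.98 on day 2 (log2 difference 2.35, SE 0.10, limma adjusted p = 5.94e-12), 5.11-fold higher. The acetate ester gene ATF1 (-0.49) and the ethyl ester genes EEB1 (-0.87) and EHT1 (-0.43) were lower and ATF2 (0.46) higher.

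Of 48 cofactor genes for thiamine, pyridoxine, biotin, riboflavin and NAD 34 were lower, 13 were not called and 1, RIB1 of riboflavin synthesis, was higher at 0.90 (median -0.52). With the length trend taken out 21 were lower and 7 higher. The falls included the thiamine transporter THI7 (-1.91), kynurenine hydroxylase BNA4 of NAD synthesis (-1.88) and biotin synthase BIO2 (-1.58), besides VHT1; THI4, a major thiamine gene, was not called (-0.05). For nucleotides, 7 of 10 purine synthesis genes rose and 2 fell, and 8 of 11 pyrimidine genes fell and 3 rose. ADE1 rose by 1.09 and URA1 changed by -1.0; URA2, the regulated first enzyme of pyrimidine synthesis, was higher with 13.00, 13.01 and 13.30 on day 10, against 11.67, 11.61 and 11.79 on day 2 (log2 difference 1.41, SE 0.09, limma adjusted p = 1.16e-09). Metal genes went both ways, 15 of 47 higher and 18 lower (20 and 16 with the length trend taken out). Of 11 genes of copper and iron uptake and their regulators, picked from this list after the values were seen, 8 fell and 0 rose. CTR1 (-1.99), FTR1 (-1.87) and CCC2 (-1.68) were among those lower, and AFT1, the iron regulator, was not called (0.13). The siderophore transporter ARN2, which is not among the 11, rose by 2.16. CUP2, the copper-responsive activator of metallothionein, rose by 1.70. In the phosphate regulon 7 of 26 rose and 8 fell (13 and 8 after centring), with the glycerophosphoinositol transporter GIT1 at 2.89 and acid phosphatase PHO5 at -1.20.

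Ribosome assembly factors and mitochondrial ribosomal proteins were lower more often than the 46.3% of all genes, whereas cytosolic ribosomal proteins were near that share. Few cytosolic ribosomal proteins were higher as deposited, 4% of the large-subunit and 1.92% of the small-subunit list, against 27.1% of all genes. Of 75 large-subunit proteins 30 were lower and 3 higher (median -0.30), and of 52 small-subunit proteins 27 and 1 (median -0.35), not far from the -0.23 of all genes. With the length trend taken out 10 large-subunit genes were lower and 11 higher (median -0.07), and 15 small-subunit genes lower and 6 higher (median -0.16). The median shift of the large-subunit list from its day 2 mean was -0.39, -0.21 and -0.24 on the day 10 arrays and 0.02, -0.18 and 0.16 on the day 2 arrays, so that list moved by hardly more than its spread. The small-subunit list had -0.49, -0.3 and -0.28 on day 10 and 0.02, -0.17 and 0.15 on day 2. Many of these genes have near-identical paralogs whose probe sets may share signal. Ribosome assembly factors moved further: 82 of 136 were lower and 9 higher (median -0.53; 64 lower and 17 higher with the length trend taken out), with shifts of -0.57, -0.48 and -0.63 on day 10 and at most 0.05 either way on day 2. UTP6, of the small-subunit processome, had 6.38, 6.79 and 6.35 on day 10, against 8.5, 8.37 and 8.66 on day 2 (log2 difference -2.01, SE 0.21, limma adjusted p = 2.25e-07). MRT4, which helps to assemble the ribosomal stalk, was opposite with 14.11, 14.21 and 14.18 on day 10, against 10.97, 10.55 and 10.99 on day 2 (log2 difference 3.33, SE 0.15, limma adjusted p = 1.29e-11), a 10.1-fold rise, and NOC3, of large-subunit export, rose by 2.76. RNA polymerase I and III genes had 16 of 37 lower and 9 higher (11 and 12 with the length trend taken out), with RPC25 at -2.01 and RPO31, the largest subunit of polymerase III, at 1.13. Of 56 tRNA synthetases and translation factors 28 were lower and 7 higher, with elongation factor YEF3 at -0.69 and its paralog HEF3 at 1.91. Mitochondrial ribosomal proteins had 46 of 69 lower and 8 higher (median -0.46), with MRPS35 at -1.93.

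Flocculin and adhesion genes rose, without a fall among them. Of 15 flocculins and regulators 11 were higher and 0 lower (median 1.00; 1 was lower after removal of the length trend). FLO11, the adhesin of biofilms and flor, had 12.14, 11.72 and 12.02 on day 10, against 10.46, 10.37 and 10.55 on day 2 (log2 difference 1.5, SE 0.21, limma adjusted p = 5.71e-06), and FLO1, of flocculation, had 6.78, 6.77 and 6.51 on day 10, against 5.02, 5.18 and 5.06 on day 2 at a low signal (log2 difference 1.60, SE 0.17, limma adjusted p = 1.98e-07). FLO10 rose by 1.65; probe sets of this family may read more than 1 FLO gene. The filamentation activator TEC1 had 10.74, 10.96 and 11.05 on day 10, against 8.28, 8.32 and 8.29 on day 2 (log2 difference 2.62, SE 0.16, limma adjusted p = 2.87e-10), and MGA1 rose by 1.95; FLO8, which FLO11 and FLO1 require, was not called (-0.22). Cell wall genes went both ways, 21 of 66 higher and 22 lower, or 22 and 16 after centring and 30 and 13 with the length trend taken out. Chitin synthase CHS1, of wall repair, rose by 1.83 and the glucanase SCW10 by 1.69. GAS1, a glucan-remodelling enzyme, changed by -0.93 and the exoglucanase EXG1 by -1.37. The glucan synthase FKS1 was lower (-0.33) and its stress isoform GSC2 higher (0.75).

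Protein breakdown genes were set beside all genes, of which 46.3% were lower and 27.1% higher. Of 37 proteasome genes, counted with their activator RPN4 and the related UBA1 and CDC48, 20 were lower and 4 higher (9 and 12 with the length trend taken out), with PRE1 at -1.22 and RPN4 at 0.74. The ubiquitin-conjugating enzyme UBC4 rose by 1.73, and the polyubiquitin gene UBI4 was not called (0.15). Of 41 autophagy and vacuolar protease genes 20 were lower and 12 higher. ATG1, the kinase that starts autophagy, rose by 1.48 and ATG8, the membrane tag, by 0.95; ATG12 (-1.92), the aminopeptidase DAP2 (-1.44) and carboxypeptidase Y, PRC1 (-1.05), were lower, and proteinase A, PEP4, was not called (-0.15).

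Cell cycle genes did not fall as a group: of 30 cyclins and regulators 8 were lower and 8 higher. The G1 activator SWI4 had 7.45, 7.48 and 7.10 on day 10, against 8.83, 8.73 and 8.69 on day 2 (log2 difference -1.41, SE 0.20, limma adjusted p = 6.69e-06), the mitotic cyclin CLB2 changed by -1.21, the G1 cyclin CLN3 by -0.49, and CLN2 was not called (-0.14). Of 55 DNA replication genes 26 were lower and 17 higher (median -0.24), or 20 and 20 with the length trend taken out. As deposited these shares, 47.3% and 30.9%, were near the 46.3% and 27.1% of all genes. DPB3 (-1.44) and the ribonucleotide reductase subunit RNR2 (-1.09) were lower. MCM3 of the replicative helicase rose with 11.43, 11.38 and 11.78 on day 10, against 8.64, 8.52 and 8.74 on day 2 (log2 difference 2.90, SE 0.15, limma adjusted p = 4.24e-11). Among 20 histone genes and histone chaperones 7 rose, including HTB2 (1.74) and the linker histone HHO1 (1.25), and 5 fell. Meiotic genes had 17 of 39 higher and 8 lower. SPS1, a sporulation kinase, rose by 2.84, and DMC1, the meiotic recombinase, by 2.33, but IME1, the master inducer of meiosis, was not called (-0.08). In the mating list 11 of 33 rose and 13 fell (13 and 12 with the length trend taken out). MFA1 stood out, as given above; STE5, the scaffold of the pheromone kinases, rose by 1.92, and STE50, an adaptor of that pathway, changed by -1.57.

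Isozymes and paralogs were set side by side for 32 pairs. In 8 pairs the calls were opposite: GPD2, ACS1, COX5A, HXT5, CTA1, GSY1, PGM1 and GSC2 were higher while GPD1, ACS2, COX5B, HXT3, CTT1, GSY2, PGM2 and FKS1 were lower. Peroxisomal catalase CTA1 averaged 9.81 ± 0.23 on day 10 and 8.82 ± 0.05 on day 2, and its partner CTT1 averaged 12.98 ± 0.26 on day 10 and 14.50 ± 0.02 on day 2 (log2, SD, n = 3 each). Phosphoglucomutase PGM2, the major form, averaged 12.29 ± 0.03 on day 10 and 12.86 ± 0.06 on day 2 and the minor PGM1 averaged 8.61 ± 0.26 on day 10 and 8.06 ± 0.12 on day 2. In 3 pairs both members rose (SSA1 with SSA4, HSC82 with HSP82, SSE1 with SSE2) and in 6 both fell. In 6 pairs 1 member was called higher and the other not called, in 7 pairs 1 was called lower, and in 2 pairs neither was called. The 2 were pyruvate kinases CDC19 and PYK2, and HYP2 with ANB1, the aerobic and hypoxic forms of a translation factor.

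The day 5 vials show when these changes were made. Day 5 differed from day 2 in 3684 genes (67.6%; 1442 higher, 2242 lower), and day 10 from day 5 in 1674 (30.7%; 614 higher, 1060 lower), with 1135 and 144 of them 2-fold or more (20.8% and 2.64%). These steps share the day 5 arrays with each other and the day 2 or day 10 arrays with the whole course. The 3′ minus 5′ controls averaged 1.00 ± 0.03, 1.46 ± 0.07 and 1.78 ± 0.07 on days 2, 5 and 10 (log2, SD, n = 3 each), and their part in these steps was not tested. Of the net rise of the 591 genes that rose 2-fold, a median of 79.4% (quartiles 61.5% and 95.5%) had taken place by day 5, and of the net fall of the 898 genes that fell 2-fold, 81.2% (quartiles 69.1% and 94.2%). A few rises came mainly later: PRP46 averaged 9.31, 10.80 and 12.88 on days 2, 5 and 10, NDE1 averaged 8.70, 8.87 and 10.40, and SPO11, which makes meiotic DNA breaks, averaged 6.55, 6.88 and 8.33.

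Some genes returned by day 10 toward their day 2 level, so that the whole-course difference understates what happened between. In 180 genes a called fall by day 5 was followed by a called rise, and 87 of these were not called over the whole course; in 225 a rise was followed by a fall, and 115 of these were not called. ROX1 averaged 13.17, 10.40 and 13.54 on days 2, 5 and 10, and CYB2, lactate dehydrogenase of the mitochondrion, averaged 12.39, 10.22 and 12.19. CYC1 averaged 11.53, 10.41 and 13.25, falling before its net rise, and HMG1 averaged 13.94, 11.44 and 13.08. CYB5, the cytochrome b5 that serves sterol and lipid enzymes, averaged 14.48, 11.21 and 13.39. All 5 genes were lowest on day 5. Over all genes 26.5% were higher and 41.1% lower on day 5 against day 2, then 11.3% higher and 19.5% lower on day 10 against day 5. The respiratory list had 4 of 45 genes higher and 29 lower in the first step, then 19 higher and 6 lower in the second. In ergosterol synthesis 30 of 35 fell by day 5 (median -1.51) and 19 then rose, with 3 falling (median 0.36). Amino acid synthesis ran the other way, with 29 of 65 higher by day 5 and 8 lower, then 3 higher and 27 lower. AGP1 averaged 10.50, 13.55 and 11.79 and the glycerophosphoinositol transporter GIT1 8.71, 12.99 and 11.60, both highest on day 5. Ribosomal proteins were almost level by day 5 (8 large-subunit genes higher, 1 lower) and lower in 30 of 75 from day 5 to day 10, though the day 5 arrays of that list spread widely (shifts of 0.34, 0.16 and -0.19).

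**Figure D4:**
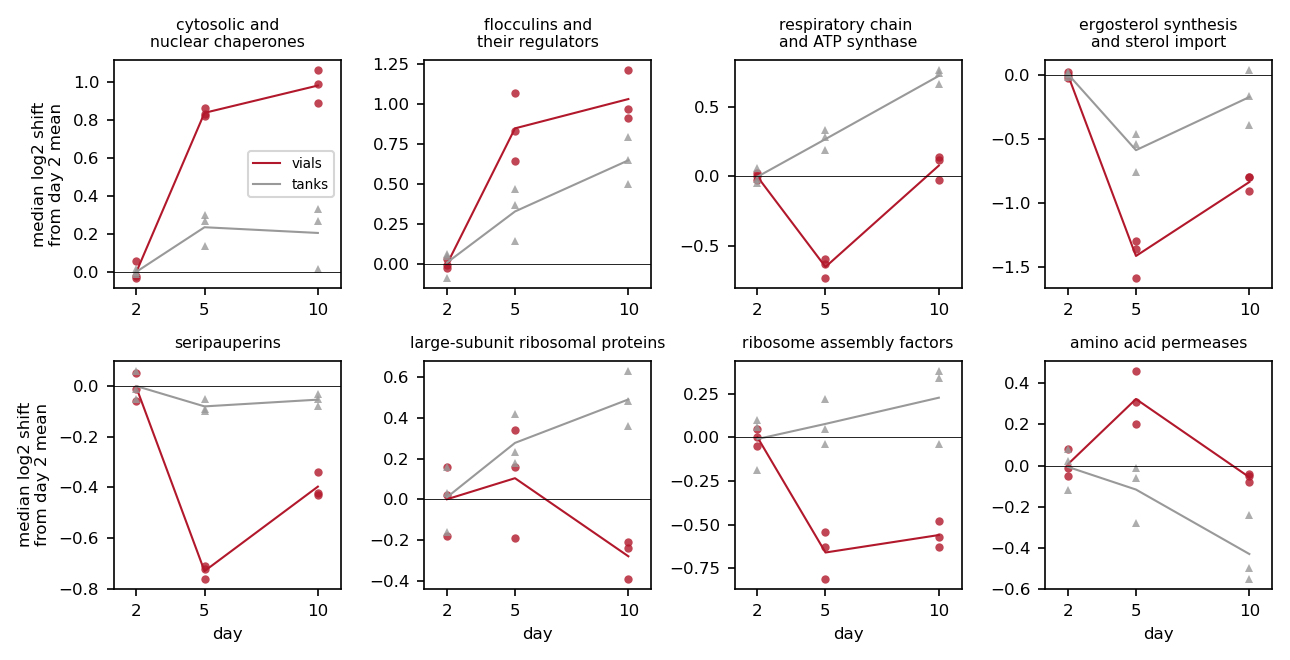
Median over the members of 8 gene lists of each member's log2 signal minus its own day 2 mean at that scale, for each array (points) with group means joined by lines, by day, in vials (circles) and tanks (triangles). In vials chaperones and flocculins are high from day 5, and assembly factors stay low. Sterol and seripauperin genes dip on day 5 and partly return, while respiratory genes dip and return to near their day 2 level.

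The same interval in the tanks was compared with that in the vials. Day 10 tanks differed from day 2 tanks in 4294 genes (78.8%; 1936 or 35.5% higher, 2358 or 43.3% lower), and across genes the vial and tank changes, which share no array, correlated at Pearson 0.632 and Spearman 0.62 over 5449 genes, as a description. The change itself differed in 3282 genes (60.2%), 1445 with a more positive change in vials and 1837 with a more negative one (limma, interaction of scale and day). One tank array of day 10, replicate 2, stood apart from its group, and without it 3591 genes differed, 1569 and 2022 by direction. Of 1479 genes that rose in vials 1056 also rose in tanks and 176 fell; of 2521 that fell in vials 1728 also fell and 323 rose. In all 176 and 323 genes called in opposite directions the difference was called too, an outcome that 2 opposite calls from the same fit nearly fix in advance.

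Most of the 12 genes with the largest differences moved up at one scale and not at the other. OPI10 rose in vials by 3.34 and changed in tanks by -0.76 (difference 4.10, limma adjusted p = 7.29e-13). SSA4 rose by 2.98 in vials and changed by -0.55 in tanks (difference 3.52, limma adjusted p = 8.86e-11). PRP46 had 3.57 in vials and -0.10 in tanks, where it was not called. PER33, of the nuclear envelope, had 2.33 and -1.36, the serine hydrolase FSH1 1.83 and -1.48, and the vacuolar protein YHC3 0.31, not called, and -3.04. On the negative side ROX1 had 0.37 in vials, not called, and 6.04 in tanks (difference -5.67, limma adjusted p = 1.02e-07), while ECM13 had -0.91 and 5.05. CYB2, not called in vials, had -0.21 and 4.14, UPS2, of mitochondrial phospholipids, 0.93 and 5.16, and PRM5 -0.83 and 3.78. BSC1, not called and near background in vials, had 0.38 and 5.11. Without the tank array that stood apart these 12 differences lay between 3.40 and 4.10 on the positive side and between -6.01 and -4.37 on the negative side.

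By function, heat shock and sterol genes were among those that differed. Over all genes 26.5% had a more positive change in vials and 33.7% a more negative one. In 20 of 36 cytosolic chaperones the change was more positive in vials and in 4 more negative; HSP82 changed by 2.11 in vials and -0.45 in tanks (difference 2.56, limma adjusted p = 1.15e-09), but SIS1 by 3.67 and 3.49 with no called difference, and HSF1 by 1.03 and 2.04, more in tanks. Respiratory genes were more negative in vials in 33 of 45 (list medians 0.03 in vials and 0.70 in tanks), and cytochrome c oxidase in 9 of 9. Ergosterol genes were more negative in 23 of 35 (medians -0.86 and -0.12), among them ERG13 at -2.35 in vials and -0.19 in tanks, whereas ERG24 had -2.49 and -2.22 and no called difference. Ribosome assembly genes were more negative in 81 of 136 (medians -0.53 and 0.21, or 0.34 without the tank array that stood apart). Of 15 sucrose, maltose and galactose genes 11 were more positive in vials and 0 more negative (medians 0.52 and -0.71). The list of flocculins and their regulators had positive medians at both scales (1.00 and 0.74), with 4 of 15 more positive in vials and 4 more negative. The 7 flocculin and adhesin genes, grouped after the values were seen, had medians of 1.00 in vials and -0.13 in tanks. In tanks 3 of them rose and 3 fell, and 4 were more positive in vials and 0 more negative. Among them FLO11 rose by 1.5 in vials and was not called in tanks (-0.13, difference 1.63, limma adjusted p = 0.00018). Of the 11 copper and iron uptake genes picked after the values were seen, 9 were more negative, CTR3 changing by -2.63 in vials and 1.14 in tanks. The full list of 47 metal genes was nearly even, with 17 more positive in vials and 15 more negative. The 3′ minus 5′ controls also differed, averaging 1.78 ± 0.07 in vials and 1.36 ± 0.09 in tanks on day 10, against 1.00 ± 0.03 in vials and 0.83 ± 0.06 in tanks on day 2 (log2, SD, n = 3 each); their part in these differences was not tested.

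**Figure D5:**
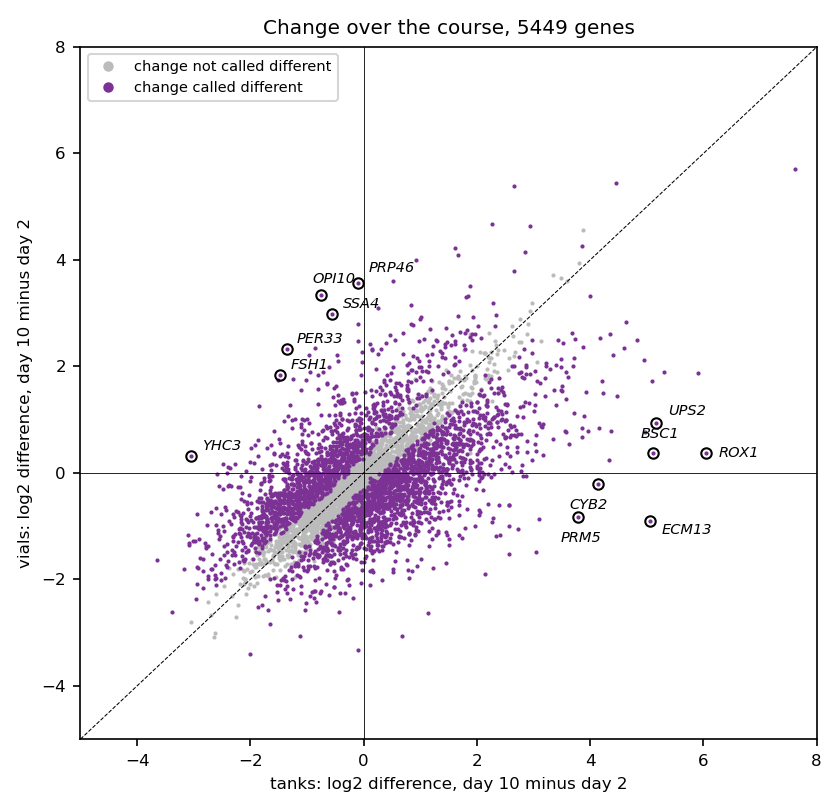
Log2 difference day 10 minus day 2 in vials (vertical) against that in tanks (horizontal) for 5449 genes, coloured where the vial and tank changes were called different, with equality dashed. The circled genes are the 12 largest named differences: OPI10, PRP46, SSA4, PER33, FSH1 and YHC3 above the line, and ROX1, ECM13, CYB2, UPS2, PRM5 and BSC1 below it.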

How the data were processed

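The study hybridised 18 RNA samples from fermentations to Affymetrix arrays of S. cerevisiae and S. pombe probe sets, and 6 of them, the vials of days 10 and 2, carry the main comparison. Per the submitters' processing notes the authors processed the arrays by RMA in Affymetrix Expression Console; the sources used here give no version or setting. What the authors deposited is linear intensity per probe set, and log2 of that deposited intensity was taken here without a pseudocount. Gene names came from the platform annotation and RefSeq R64 (5498 probe sets, 5449 genes; the brightest probe set where a gene had several); 3517 probe sets without a listed gene, 1746 of S. pombe, 166 controls and 1 with several genes were not tested. Precision is limited by the 3 arrays per group.

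limma 3.58.1 in R 4.3.3 fitted 6 group means to all 18 arrays (12 residual degrees of freedom), with Benjamini-Hochberg adjustment over 5449 genes and calls at adjusted p under 0.05. Each p-value rests on how far replicates named biological in the labels lie apart. The fit was tested on simulated data. Named genes are the 12 largest called rises and falls with a standard symbol, above background and without overlap, up to 4 called members per direction of each list with its regulators and rate-limiting or defining members, both members of each isozyme pair, and the 6 largest differences between vials and tanks in each direction. The gene lists, the named genes' rule and the comparison were chosen with earlier results of these data known, and the divisions by role and the defining members after the values were seen. Alternatives were scaling, filters, other fits and each replicate left out. A planned search of promoters for motifs was not run, since no sequences were used here.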

Additional observations from a re-analysis of the deposited data

Results flagged for a closer look

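The change over the course differed between vials and tanks in 3282 of 5449 genes by the interaction of limma. Among the 12 largest rises in vials the difference (vial change minus tank change, log2) was 2.74 for URN1, 0.40 for APJ1, 2.61 for ZPS1, 2.43 for ADR1, 3.09 for BTN2, 3.09 for ZPR1, 3.67 for PRP46, 1.64 for GAC1 and 4.10 for OPI10, so the change of these 9 was more positive in vials. Among the 12 largest falls it was -1.40 for MSC7, -3.23 for TPA1, -1.94 for RRG1, -1.17 for DPP1, -3.77 for CTR3 and -2.19 for YTP1, all more negative in vials, and 0.75 for VHT1, which fell more in tanks. The other genes with the largest differences were PER33 (3.69), SSA4 (3.52), YHC3 (3.35) and FSH1 (3.31), more positive in vials, and ECM13 (-5.97), ROX1 (-5.67), BSC1 (-4.74), PRM5 (-4.60), CYB2 (-4.34) and UPS2 (-4.23), more positive in tanks. Differences of that size rest on 12 arrays, 1 of which, tank day 10 replicate 2, stood apart from its group; without it the difference was 4.10 for OPI10, 3.49 for SSA4 and -5.88 for ROX1. Outside the named genes, 402 probe sets with no listed gene lay above background in the vials, and 35 of them were 2-fold higher and 41 2-fold lower on day 10 without overlap between the days.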

How the results depend on the processing

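Most values kept their direction and their side of the threshold. Over all alternatives and 471 named genes, 7403 single values counted as unchanged, which includes values called neither time that took the other sign. A further 80 lost and 42 gained a call, and 11 changed sign where the difference was called before or after. These 11 came with removal of the trend on coding length, which gave 0.03 for DAL82, 0.17 for ADH1, 0.19 for PDC1, 0.23 for CDC19, 0.21 for TDH1, 0.25 for ENO1, 0.00 for OYE2, 0.26 for BAT2, 0.03 for ERG11, 0.22 for OLE1 and 0.28 for TPS1, and a median of 0.20 for the glycolytic list; repeated quantile normalization gave the mating list a median of 0.06. Differences near 0 that were called neither before nor after also took the other sign, in 12 named genes after centring each array, 8 after repeated quantile normalization, 6 with a replicate left out and 1 with array weights. Removal of the length trend gave the other sign in 24 named genes, 10 of them called before or after. OYE2, at 0.00, is not counted among the 24. Of 434 called named genes 28 lost their call under some setting. Requiring a 2-fold change left 591 genes higher and 898 lower over the course, 1135 called between days 2 and 5, 144 between days 5 and 10 and 1335 for the difference between vials and tanks. Array weights, which gave tank day 10 replicate 2 a weight of 0.163 and vial day 2 replicate 1 a weight of 5.19, raised the count between days 5 and 10 to 3019. With each replicate left out in turn the counts were 1374 to 1411 higher and 2393 to 2422 lower over the course within vials, 3415 to 3612 for days 2 to 5, 1180 to 1720 for days 5 to 10 and 3032 to 3591 for the difference. Same-numbered replicates did not deviate together (correlations of 0.217, -0.202 and 0.289 between vials of days 2 and 10), and the labels do not say that a number marks 1 fermentation followed over time, so the numbers were not taken to pair the samples; a replicate block gave 1468 higher, 2511 lower, and 3643, 1595 and 3205 for the other comparisons. The causes of these moves were not tested. Signal over background, not depth, sets the limit here: 20 genes have only a bound on 1 day. The 61 genes above log2 14 on both days had little room for a 2-fold change under the highest signal of 15.27.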

Other observations

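Genes without a standard symbol were left out of the named rises, and 2 of them exceeded URN1. The open reading frame YBR182C-A rose by 5.71 on the log2 scale and YMR244W by 5.44 between day 2 and day 10 of the vials. The difference also varied with coding length: its median was -0.05 over the genes under 600 nucleotides, -0.29 over 865 genes from 600 to under 900, -0.30 over 2162 from 900 to under 1800 and -0.17 over 1523 of 1800 or more. On all 3 arrays of 1 vial group 20 genes did not exceed background, and 19 of them were called; for these a fold is only a bound, at least 1.99-fold lower on day 10 for the metalloreductase gene FRE7 and at least 1.42-fold lower for the amino acid permease gene AGP3.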
